A study of Mus musculus with 3 samples.

Results

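Upper hair follicle keratinocytes line the funnel of the follicle above the bulge, where the hair canal opens to the skin surface and the sebaceous duct joins it. Here they were chosen by the UMIs of 6 genes in each cell. Barcodes with at most 10% mitochondrial UMIs and at least 200 genes were kept, and a member had a UMI in at least 3 of Krt79, Cst6, Defb6, Klk7 and Alox12e, at least 2 UMIs of Krt79 and 0 of Ptprc. By this rule 881 of the 26847 kept cells were members. There were 192 of 6582 in the Neg library, 270 of 10433 in the AA library and 419 of 9832 in the AA+Ab library. Those 5 genes and Ptprc chose the cells, so their values are given as a description and support no result.

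The cells came from the dorsal skin of female C3H/HeN mice, 25 weeks old, whose dissociated cells were sequenced in droplets, with the skin of 7 to 8 mice pooled in a library. Neg denotes unaffected mice labelled as the negative, vehicle control. AA denotes a mouse model of alopecia areata, an autoimmune loss of hair, made in this strain by injecting skin-draining lymph node cells of affected mice. AA+Ab denotes the same model given an antibody that neutralizes the chemokine CXCL12, whose dose and timing are not given in the sources used here. The libraries held 121289374, 137290217 and 141998364 UMIs over 6965, 10879 and 10507 barcodes in Neg, AA and AA+Ab, the order used throughout. Each group is 1 pooled library with no replicate, so no difference has been set against a spread between mice, the condition and the library cannot be told apart, and no test was made. Levels are UMIs summed over members per 1000000 of their UMIs (CPM), and all intervals are exact 95% intervals for counting error only, which is smaller than the error where a few cells hold most UMIs of a gene. Between libraries, 18, 17 and 28 barcodes were shared (AA and Neg, AA+Ab and Neg, AA+Ab and AA), none of them a member in both, which is 0 members in each pair.

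The upper follicle, comprising the infundibulum, the junctional zone and the isthmus, sits between the surface epidermis and the hair-producing lower follicle, and its opening is colonized by microbes. Its keratinocytes make antimicrobial peptides, proteases and protease inhibitors that govern shedding of the canal lining, and keratins of their own, among them keratin 79, which marks cells that open the hair canal. In alopecia areata, cytotoxic T cells gather around growing follicles, and interferon gamma made by T cells induces antigen-presenting molecules and chemokines in the follicle's keratinocytes.

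The label was set against genes that mark such cells. Krt79 stood at 2585, 3013 and 3169.9 CPM in members and at 11.6, 19.9 and 22.7 CPM in all other kept cells. Cst6, the cysteine protease inhibitor cystatin M/E, had 3423, 3817 and 5249 CPM in members and 44.4, 41.7 and 62.5 CPM elsewhere. Both contrasts were made by the choice of cells. Defb6, a beta-defensin, had 1982, 2358 and 2763 CPM in members, while Klk7, the kallikrein protease that cleaves corneodesmosomes, had 90.2, 201 and 91.8 CPM with a UMI in only 31.8, 28.5 and 24.1% of them. Alox12e, an epidermal lipoxygenase, had 141, 248 and 203 CPM. Krt17, a keratin of the follicle and of skin appendages that the rule did not use, stood at 3900.1, 3955 and 5018 CPM in members and at 301, 356 and 356 CPM in the other kept cells. Krt17 was thus high in members of all 3 libraries, as the label has it. A UMI of Krt17 was present in 95.8, 93.7 and 94.7% of members (median 26422, 14579.5 and 16709 UMIs per cell) and in 21.1, 20.8 and 25.7% of fibroblasts, which should lack it (median 10046, 7691 and 7825 UMIs). Sebaceous cells shared Krt79, at 336, 755 and 922 CPM, and suprabasal cells shared Cst6, at 221, 158 and 265 CPM.

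Near the threshold, 11, 27 and 28 members had exactly 2 Krt79 UMIs, and 71, 47 and 106 cells that met the other terms had 1 and stayed outside. Of the members, 58, 108 and 130 had exactly 3 of the 5 genes, 84, 119 and 208 had 4 and 50, 43 and 81 had all 5. A further 36, 82 and 76 cells with at least 2 Krt79 UMIs had only 2 of the genes. Ptprc, the leukocyte antigen CD45, left out 7, 10 and 8 cells. Doublets, scored against simulated pairs of cells, were kept as members because the rule has no doublet term, and numbered 17, 36 and 61 of the members, or 8.85, 13.3 and 14.6%. Members were deep cells, with medians of 26422, 14579.5 and 16709 UMIs against 13694, 11177 and 11371 UMIs over all kept cells.

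Members made up 2.92, 2.59 and 4.26% of kept cells (exact intervals 2.52 to 3.35, 2.29 to 2.91 and 3.87 to 4.68%). With every kept cell thinned to 5000 UMIs, which left out 720, 1395 and 1456 shallower cells, the rule took 2.098, 2.02 and 3.71% (123, 183 and 311 of 5862, 9038 and 8376 cells). The AA+Ab library had the highest share at either depth, and the intervals of Neg and AA overlapped. With 1 Krt79 UMI in place of 2 they did not, at 3.996% (3.54 to 4.497) in Neg and 3.04% (2.72 to 3.39) in AA. A share of cells from dissociated skin also depends on how well each cell type was released, which was not measured.

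The 15 genes with the largest excess in members over other kept cells, by a mean over libraries of log2 CPM ratios with 5 CPM added and without the genes of the rule, began with 2310046K23Rik, Nebl, Krt17, Sprr1a and Adgrl3. 2310046K23Rik had 202, 151 and 257 CPM in members and 1.997, 1.61 and 3.803 CPM elsewhere. Nebl, which encodes the actin-binding nebulette, had 249.6, 390.1 and 233 CPM against 15.6, 19.5 and 17.2 CPM, and was detected in 89.1, 81.1 and 82.3% of members and 5.26, 1.04 and 5.71% of fibroblasts. 2310046K23Rik was detected in 31.8, 25.9 and 34.6% of members and in 2.63, 0 and 0% of fibroblasts, so that both genes were rare in fibroblasts and Nebl was the one found in most members. Among transcription factors on the list, Sox9, a regulator of follicle stem and outer root sheath cells, had 289, 546 and 360.2 CPM in members against 31.1, 55.2 and 41.02 CPM elsewhere. Gata6, a factor of the sebaceous duct and upper follicle, had 49.3, 59.5 and 79.2 CPM against 2.58, 3.27 and 4.38 CPM. Foxc1 and Sox7 had 57.6, 77.05 and 71.6 and 54.3, 85.1 and 58.9 CPM in members, and at most 5.55 CPM elsewhere. All 4 factors were at least 8 times higher in members than in other kept cells in each library. Spink5, the inhibitor LEKTI that restrains epidermal kallikreins, was also among the 15, at 296, 388 and 444 CPM against 35.01, 33.5 and 50.4 CPM. The rest were the adhesion receptor Adgrl3, the G-protein regulator Rgs20, the proton pump subunit Atp6v1c2, the esterase Aadac, the ephrin receptor Ephb2 and Gas7. Gas7 is not a gene of these cells alone, with a UMI in 74.5, 63.3 and 70.9% of members and 65.8, 64.6 and 48.6% of fibroblasts.

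Across conditions, 10078 genes with at least 100 UMIs over the members of the 3 libraries were compared, and a gene was counted when its CPM differed at least 2 times. In AA against Neg, 279 genes (2.77%) were higher in AA and 98 (0.972%) lower, with a median log2 ratio of 0.02 over all genes. In AA+Ab against Neg, 50 genes (0.496%) were higher in AA+Ab and 112 (1.11%) lower (median -0.07). In AA+Ab against AA, 61 genes (0.605%) were higher in AA+Ab and 390 (3.87%) lower (median -0.12). With doublets removed, the 50 became 27 and the 112 became 146, and with median-ratio size factors the 61 became 94, and other alternatives that moved a count over 1.5 times are in the closing section. The 3 comparisons share libraries, so that a gene high in AA alone counts in the first and the last, and what stood out in each is given first in plain words. Of the 279 genes higher in AA than in Neg, 17 had more than 50% of their AA UMIs in 1 member, while 18 of the 50 genes higher in AA+Ab than in Neg and 15 of the 61 higher than in AA had more than 50% of their AA+Ab UMIs in 1. In the same libraries, 131 of 10666 genes were higher in AA than in Neg in suprabasal cells and 168 of 12878 in basal cells, where 301 and 161 were lower.

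Set against Neg, upper follicle cells of the AA library had more transcripts of genes that interferon induces, of class II antigen presentation, of the stress keratin gene Krt6a and of 2 growth factors, Tgfa and Areg. They had fewer transcripts of Txnip. Set against Neg, cells of the AA+Ab library had 5 of 21 tested interferon-induced genes at least 2 times higher and 0 lower. These levels still lay closer to Neg than to AA. Some of the 21 were tested only because of their UMIs in AA, so their share cannot be set against that of all genes. Summed over all measured genes, the GTPase and antiviral lists described below had log2 ratios of 0.49 and 0.30 for AA+Ab against Neg. Of the 12 genes furthest above Neg in AA+Ab, 4 were of the melanocyte list, Ccl2 and Areg came last, and 10 had over 50% of their AA+Ab UMIs in 1 member. The 12 furthest below each had over 50% of their Neg UMIs in 1 member. Set against AA, cells of the AA+Ab library had fewer transcripts of the interferon-induced genes and more of Txnip, and of the 12 genes furthest above AA, 4 were of the melanocyte list.

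Genes induced by interferon were higher in AA members than in those of the other 2 libraries. Interferon gamma induces guanosine triphosphatases (GTPases) that attack membranes enclosing intracellular microbes, and 16 of the 18 listed were measured. Their summed level was 14.6, 208 and 20.5 CPM, and all 5 of the 5 that reached 100 UMIs were at least 2 times higher in AA than in Neg, with a median log2 ratio of 3.43 against 0.02 over all genes. Since a gene could reach 100 UMIs through the AA library alone, the sum over all 16 is the fairer value, at a log2 ratio of 3.84 (3.54 to 4.15) for AA and 0.49 (0.13 to 0.85) for AA+Ab against Neg. Iigp1 had 1, 263 and 2 UMIs, the AA ones in 33 members, which is a log2 ratio of 8.54 (6.05 to 13.85) against Neg. Gbp2, a guanylate-binding protein, stood at 3.14, 33.97 and 7.34 CPM, and Igtp, an immunity-related GTPase, at 1.86, 24.3 and 2.67 CPM. Irgm1 and Gbp7 had 16.8 and 26.5 CPM in AA and at most 4.12 CPM in the other libraries. The AA library was thus high for each of these genes, and Neg and AA+Ab were low and near each other for all but Gbp2, whose log2 ratio of AA+Ab against Neg was 1.22 (0.51 to 1.99).

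Antiviral genes induced by type I interferon were also higher in AA. Of 32 listed, 30 were measured, summing to 571, 1695 and 703 CPM, a log2 ratio of 1.57 (1.52 to 1.63) for AA and 0.30 (0.24 to 0.36) for AA+Ab against Neg. Some genes reached 100 UMIs through AA alone, so counts and medians over those tested lean toward genes high in AA. Of the 16 with 100 UMIs, 12 were higher in AA than in Neg (median 2.55), 4 were higher in AA+Ab than in Neg (median 0.26) and 12 were lower in AA+Ab than in AA (median -2.44). Ifi27l2a, a small interferon-inducible membrane protein, ranked first among all genes tested by its ratio of AA to Neg with 5 CPM added to each, at 13.7, 408 and 35.6 CPM (AA 391 to 427), a log2 ratio of 4.90 against Neg. Its 2020 UMIs in AA lay in 116 of 270 members, 285 of them in 1 cell. Bst2, the tetherin that holds budding virus at the membrane, had 5.14, 80.5 and 13.02 CPM. Isg15, a ubiquitin-like modifier, had 12.6, 69.8 and 8.12 CPM, and Oasl2, of the oligoadenylate synthetase family, 0.857, 32.96 and 2.78 CPM. In Neg, Ifit1, Ifi44 and Rtp4 had 0 UMIs, against 108, 106 and 106 UMIs in AA, or at least 50.96, 50.01 and 50.01 times more when a floor of 3 counts stands for 0. AA+Ab lay closer to Neg than to AA for each gene named here, and the 4 higher in AA+Ab than in Neg were Ifi27l2a at a log2 ratio of 1.38, Rtp4 at no less than 4.41 times, and Bst2 and Oasl2 with log2 ratios of 1.34 (0.79 to 1.92) and 1.70 (0.38 to 3.27). Without the richest member of each gene in each library, an alternative chosen after seeing the data, the 2 lists summed to 11.4, 181 and 17.8 CPM and 540.2, 1489 and 675 CPM.

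**Figure D1:**
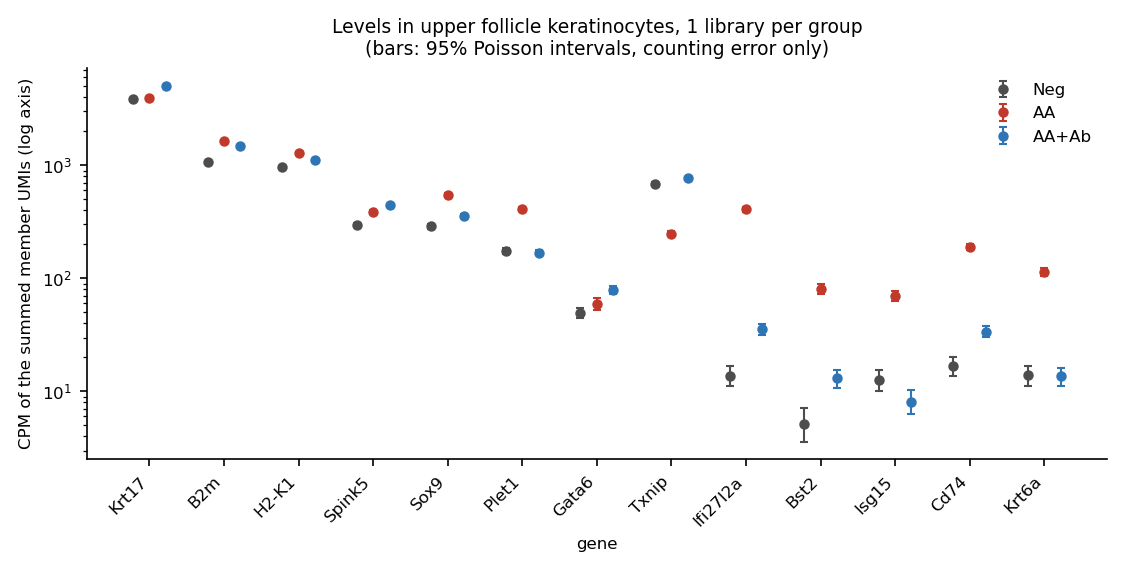
CPM of 13 genes in upper follicle keratinocytes of the Neg, AA and AA+Ab libraries on a log axis, as points with exact Poisson 95% intervals for counting error. Krt17 lies between 3900.1 and 5018 CPM in all 3 libraries, Ifi27l2a, Bst2, Isg15, Cd74 and Krt6a are highest in AA, and Txnip is lowest in AA at 249 CPM.

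The interferon signal was uneven among members. Over the 46 genes of both lists, 585, 1903 and 724 CPM were measured, and the richest 10% of the members held 36.8, 57.4 and 36.1% of these UMIs. After thinning each member to 5000 UMIs, which left out 2, 10 and 15 members, the richest 10% held 28, 50.3 and 32.7%, and 2.11, 25.8 and 5.69% of members had 10 or more of these UMIs. Without thinning, 60.9, 58.5 and 50.8% had 10 or more, which follows the deeper Neg cells. At equal depth the AA members thus ranged from 28 cells with none to 1 cell with 83 UMIs, against a highest value of 13 in Neg and 39 in AA+Ab.

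**Figure D2:**
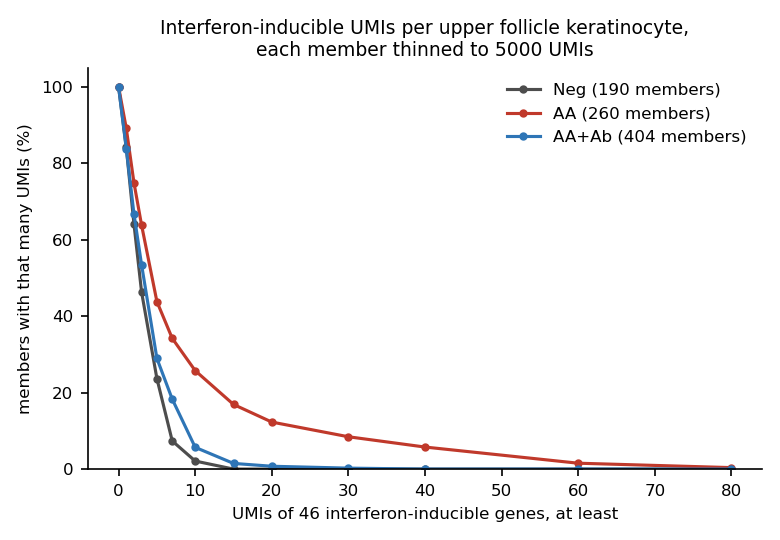
Percent of upper follicle keratinocytes with at least a given number of UMIs of 46 interferon-inducible genes, after thinning each cell to 5000 UMIs, for the Neg, AA and AA+Ab libraries. At 10 UMIs the lines stand at 2.11, 25.8 and 5.69%.

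Upstream of these genes, the receptors of interferon gamma and type I interferon differed less than 2 times between libraries. Ifngr1, which binds interferon gamma, had 134, 151 and 166 CPM, and Ifnar1, of the type I receptor, had 14.4, 17.4 and 15.6 CPM. The receptor-bound kinases Jak1 and Jak2 had 212, 333 and 222 and 31.003, 61.7 and 38.6 CPM, the AA value being highest for both with a log2 ratio against Neg of 0.99 (0.74 to 1.25) for Jak2. Stat2 and Irf9, transcription factors of the type I interferon response, had 12.001, 43.9 and 15.8 and 13.001, 30.1 and 16.4 CPM. Socs1, which blocks Janus kinases, had 5.71, 12.1 and 6.68 CPM. All 3 were at least 2 times higher in AA than in Neg. The signalling list, 19 genes tested of 22 measured, summed to 1762, 2306 and 1989 CPM and had a median log2 ratio of 0.43 for AA against Neg. Irf1, a factor of the response to interferon gamma, lay just under 2 times with 87.01, 170.3 and 125 CPM, and Stat3 and Socs3 had 445, 467 and 357 and 462, 482 and 678 CPM, with AA within 0.07 log2 units of Neg.

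Because genes of these lists were high together in AA, their promoters are shown. Of the 27 genes of the 5 interferon and antigen-presentation lists that were at least 2 times higher in AA than in Neg, 19 have a promoter among the RefSeq sequences of build GRCm38.p6 used here. The 250 bases before each start were searched on both strands for GAAANNGAA, a core to which interferon regulatory factors bind, and for TTCNNNGAA, a motif of promoters that cytokines induce. The 2 can overlap and were counted separately. GAAANNGAA was present in 11 of the 19 promoters (57.9%), against 8.18% of all 27025 promoters, 7.15% of the 8023 of genes tested, and 5 of 35 (14.3%) of list genes that differed less than 2 times. TTCNNNGAA was present in 3 of 19 (15.8%), in 8.13% of all promoters and in 7 of 35 (20%) of the list genes that differed less. A match is a description of the letters and not a measured binding site. The 6 stretches below, read 5′ to 3′ on the strand of the gene with the matched letters in capitals, are shown because their genes run from GTPases to antiviral genes and a feedback inhibitor. They lie at chr4:156200856-156200916 (minus strand), chr19:34640760-34640833 (plus strand), chr8:71537568-71537628 (minus strand), chr11:58199491-58199550 (plus strand), chr11:48871421-48871470 (minus strand) and chr16:10785585-10785639 (minus strand).
Isg15: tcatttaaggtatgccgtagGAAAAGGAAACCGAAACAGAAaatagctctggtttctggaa
Ifit1: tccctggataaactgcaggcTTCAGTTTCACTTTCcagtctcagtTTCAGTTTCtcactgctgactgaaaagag
Bst2: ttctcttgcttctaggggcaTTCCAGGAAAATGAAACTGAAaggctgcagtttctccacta
Igtp: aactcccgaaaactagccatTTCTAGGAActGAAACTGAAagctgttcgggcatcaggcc
Irgm1: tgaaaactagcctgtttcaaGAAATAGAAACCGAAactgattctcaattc
Socs1: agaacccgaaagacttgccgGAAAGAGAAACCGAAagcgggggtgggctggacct

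Antigen presentation differed by class. For class I, which shows peptides to CD8 T cells, 23 genes summed to 4423, 6037 and 5443 CPM, and 2 of 21 tested were at least 2 times higher in AA than in Neg (median 0.59). The light chain gene B2m had 1068, 1639 and 1492 CPM, and the heavy chain genes H2-K1 and H2-D1 had 963, 1293 and 1119.8 and 822, 936 and 951 CPM. Class I genes were abundant in every library, with AA higher than Neg by less than 2 times in B2m, H2-K1 and H2-D1. The peptide transporter gene Tap1 had 79.01, 111 and 81.2 CPM, and the immunoproteasome genes Psmb9 and Psmb10 had 79.2, 154 and 106 and 20.3, 40.8 and 28.5 CPM. Class II shows peptides to CD4 T cells and is usually made by myeloid and B cells. Its 11 genes summed to 52.1, 307 and 90.7 CPM. Of 6 tested, 4 were at least 2 times higher in AA than in Neg, against 2.77% of all genes. H2-Ab1, among the 4, reached 100 UMIs through AA alone, so counts over the 6 lean toward genes high in AA. Cd74, the invariant chain, had 16.7, 189 and 33.7 CPM, and its 937 AA UMIs lay in 87 members with 224 in 1 of them. H2-Aa had 8.14, 37.01 and 15.1 CPM and H2-Ab1 had 2.29, 33.2 and 7.23 CPM. The class II sum was highest in AA, but H2-DMa was slightly higher in AA+Ab, at a log2 ratio of 0.14 against AA. Of the 6 tested, 2, Cd74 and H2-Ab1, were also at least 2 times higher in AA+Ab than in Neg. The log2 ratio of the sums in AA+Ab against Neg was 0.80 (0.62 to 0.98). Without the richest member of each gene the list summed to 46.7, 235 and 75.1 CPM. The 12 listed myeloid markers summed to 5.57, 5.86 and 8.35 CPM, led by Cd68 or Tyrobp, and C1qb, C1qc and Adgre1 had 0 UMIs in all 3 libraries. The rule left out cells with a UMI of Ptprc, so low myeloid markers are partly set by the choice of cells. Genes for ligands of the natural killer receptor NKG2D stayed scarce, with 5 genes summing to 9.72, 11.3 and 9.79 CPM and H60c, the single one with 100 UMIs, at 7.57, 9.302 and 7.46 CPM.

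Of 20 chemokine genes 18 were measured, summing to 296, 577 and 379.8 CPM, and of 10 tested 3 were higher and 2 lower in AA than in Neg, a count that includes Cxcl9, which reached 100 UMIs through AA alone. Cxcl9, which draws T cells through the receptor CXCR3, had 6, 412 and 4 UMIs, a log2 ratio of 6.60 (5.47 to 8.06) for AA against Neg, with the AA UMIs in 18 of 270 members. Its relative Cxcl10 had 9.001, 52.4 and 4.79 CPM, but 195 of the 259 AA UMIs lay in 1 cell, and without the richest member of each library its log2 ratio was 1.11 in place of 2.54. High Cxcl9 was therefore a matter of few AA cells. Cxcl12, the target of the antibody, had 54.1, 70.98 and 78.7 CPM, which differed less than 2 times between libraries. What share of its UMIs was carried over from other cells was not measured. Cxcl16, a transmembrane chemokine for CXCR6, had 72.1, 109 and 91.1 CPM, and Cxcl14, which epithelia make constitutively, had 113, 182 and 116 CPM. Ccl2, which attracts monocytes, had 8.14, 37.4 and 38.3 CPM and was higher in AA and in AA+Ab than in Neg, although 88 of 185 AA UMIs lay in 1 cell. Ccl20, which draws cells with the receptor CCR6, went the other way, with 74, 12 and 118 UMIs (10.6, 2.43 and 13.1 CPM). In these cells AA was therefore the lowest library for Ccl20 and the highest for Cxcl9.

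Cytokine genes summed to 219, 231 and 164 CPM, and 0 of 7 tested, of 25 measured, reached 2 times in AA against Neg. The nearest, just under, was Il33, the alarmin stored in keratinocyte nuclei, at 17.002, 33.97 and 17.2 CPM. Il34, a ligand that sustains Langerhans cells, had 107, 67.7 and 57.1 CPM, highest in Neg. Il15, which supports cytotoxic T cells, had 8.001, 11.1 and 8.35 CPM. Among 9 tested of 17 genes linked to immune privilege or inhibition of T cells, 0 differed 2 times in any comparison (sums 2444, 2207 and 2625 CPM). Cd200, whose protein restrains macrophages, had 48.3, 70.98 and 63.1 CPM, and Cd274, which encodes PD-L1, had 9, 77 and 11 UMIs and was too scarce to be tested. Genes of the RIPK1 pathway of cell death and inflammation summed to 751, 793 and 719 CPM, 0 of 18 tested differed 2 times in any comparison, and Ripk1 itself had 28.4, 50.2 and 45.1 CPM.

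Genes of upper follicle identity outside the rule summed to 8146, 9613 and 10179.9 CPM over 18 genes, with 3 higher and 1 lower by 2 times in AA against Neg among 17 tested. Plet1, a surface protein of the junctional zone, had 175, 409 and 169 CPM, with log2 ratios of 1.22 for AA against Neg and -1.28 for AA+Ab against AA. Lrig1, which marks stem cells of the upper follicle and restrains EGF receptors, had 213, 283 and 154 CPM. Lgr6, a receptor for R-spondins in the isthmus, had 20.3, 24.1 and 9.905 CPM. All 3 were highest in AA and lowest in AA+Ab, with Plet1 in AA+Ab close to Neg. Gata6 had 49.3, 59.5 and 79.2 CPM, and Prdm1, which encodes the repressor Blimp1, had 2.57, 13.5 and 3.34 CPM, its AA UMIs lying in 27 members. Sox9 was at 289, 546 and 360.2 CPM, and Fst, which binds activin, was at 229, 267 and 267 CPM. Aqp3, a channel for water and glycerol, had 303, 389 and 488 CPM, and Ly6d had 2029.9, 2194 and 2786 CPM. The last 2 were highest in AA+Ab, by less than 2 times.

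The canal lining is shed by proteases and their inhibitors. The 20 genes of that list summed to 2028, 2394 and 2520.1 CPM, with 2 of 11 tested higher in AA than in Neg. The 2 were Klk8, a kallikrein, at 17.4, 40.8 and 17.2 CPM, and Ctsl, the lysosomal cathepsin L, at 60.3, 129 and 63.4 CPM. Klk5, which activates other kallikreins, had 40.004, 28.5 and 40.6 CPM, and its inhibitor gene Spink5 had 296, 388 and 444 CPM. Cst3, the cysteine protease inhibitor cystatin C, had 1117, 1091 and 1442 CPM. For barrier lipids, 23 genes summed to 1278, 1653 and 953 CPM, lowest in AA+Ab, with Fabp5, a fatty acid carrier, at 641, 945 and 385 CPM as the most abundant of those tested. Nipal4, of the ichthyosis genes, had 18.1, 37.4 and 15.7 CPM and was the list's single gene past 2 times in AA against Neg. Abca12, which loads lipids into lamellar granules, had 98.2, 134 and 84.02 CPM. Antimicrobial genes other than Defb6, 20 of them, summed to 529, 657 and 596 CPM, with 2 of 9 tested higher in AA than in Neg. The beta-defensin gene Defb1 had 189, 169 and 215 CPM, and Lcn2, an iron-trapping protein, had 4.14, 38.6 and 12.6 CPM with AA UMIs in 20 members. Slpi, a secreted inhibitor of leukocyte proteases, had 1.14, 11.9 and 6.01 CPM, with 8, 59 and 54 UMIs in 4, 9 and 19 members. Lcn2 and Slpi were the 2 genes of the list higher in AA, and also in AA+Ab, than in Neg, and both lay in few cells, while Defb1 differed less than 2 times. For Lcn2 the direction in AA+Ab against Neg turned, to -1.63, with members required to have 4 of the 5 rule genes.

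Members carried keratins of several layers. The basal genes Krt5 and Krt14 had 2009, 1620.4 and 2032 and 4432, 4252 and 5083 CPM, and Krt15, shared by basal and bulge cells, had 2278, 1846 and 2706 CPM. The suprabasal gene Krt10 had 1722, 1538 and 1038 CPM, and Krt77, of the suprabasal duct and interfollicular cells, had 957, 731 and 514 CPM. The 12 basal genes summed to 11230.4, 10078 and 11857 CPM and the 29 cornified-layer and suprabasal ones to 10119, 8834 and 9502 CPM. Among 11 basal genes tested, 0 differed 2 times between any pair of libraries. Of 20 cornified-layer genes tested, 2 were higher in AA than in Neg, among them Sprr1a, a cornified envelope precursor of stressed skin, at 186, 409 and 323 CPM. Within the stress list, 5 of 9 tested were higher in AA than in Neg (median 1.12), while the summed level, mostly Krt17, was 4303, 4890.4 and 5665 CPM. Krt6a, a keratin of wounded skin and of the follicle's companion layer, had 13.9, 115 and 13.6 CPM, its AA UMIs in 41 members and 82.5% of the few Neg UMIs in 1. Tgfa and Areg, ligands of the EGF receptor, had 20.6, 60.7 and 27.7 and 13.3, 46.9 and 52.3 CPM. Tgfa was highest in AA, and Areg was higher in both AA and AA+Ab than in Neg. The receptor gene Egfr had 289, 416 and 199 CPM, a log2 ratio of -1.07 (-1.16 to -0.97) for AA+Ab against AA.

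Of 18 genes tested for follicle signalling (summed 1211, 1401 and 970.4 CPM), 3 were higher in AA than in Neg, and 1 of those, the ligand gene Shh, had 100 of its 117 AA UMIs in 1 cell. Shh reached 100 UMIs through AA alone, so the count of 3 leans toward genes high in AA. Notch1, a receptor that drives keratinocyte differentiation, had 172, 155 and 139 CPM, and its ligand gene Jag1 had 107, 128 and 94.04 CPM. Of the cell cycle genes, 0 of 18 differed 2 times in any comparison, and their sums were 1951, 2003 and 1897 CPM. Mki67, present in dividing cells, had 64.9, 108 and 64.99 CPM, and Ccnd1, which drives entry into the cycle, had 86.9, 51.6 and 80.7 CPM. Immediate-early and heat-shock genes, which respond to tissue dissociation among other stimuli, summed to 19819, 19369.8 and 21763 CPM. Fos had 2620.3, 2487 and 3598 CPM and Hspa1a 820.1, 732 and 461 CPM. Of the 16 genes, Hsph1 alone passed 2 times, at 77.01, 104 and 34.7 CPM, lower in AA+Ab than in both other libraries.

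Beyond these lists, the 12 genes with the largest excess in AA over Neg held 5 of the interferon and presentation lists. Robo2, a receptor for Slit guidance proteins, had 12.3, 136 and 6.79 CPM, its AA UMIs in 46 members. Wfdc18, a small secreted protein of the whey acidic protein family, had 1.0001, 58.04 and 2.78 CPM with AA UMIs in 20 members, and Ubd, a ubiquitin-like modifier that interferon gamma induces, had 0.143, 30.9 and 2.003 CPM in 19 AA members. All 3 were highest in AA and present in under 50 AA cells each. Smox, which oxidizes spermine, had 9.57, 66.1 and 6.01 CPM, and Gk, glycerol kinase, had 9.43, 75.6 and 8.68 CPM, in 77 and 67 AA members. Both were among the 12 genes with the largest excess in AA over AA+Ab, as were Isg15 and Cxcl10.

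A gene found in most members that differed in the opposite direction was Txnip, which encodes the thioredoxin-interacting protein, a brake on glucose uptake and antioxidant thioredoxin. It had 689, 249 and 769 CPM (670.2 to 709, 235 to 263 and 751 to 787), with UMIs in 179, 215 and 399 members. The log2 ratios were -1.47 (-1.56 to -1.38) for AA and 0.16 (0.10 to 0.21) for AA+Ab against Neg, so that AA was low and Neg and AA+Ab were near each other. In basal cells Txnip had 948, 202 and 966 CPM, in suprabasal cells 749.9, 189 and 686 CPM and in fibroblasts 748, 769 and 669.9 CPM. Both other keratinocyte classes thus had their lowest level in AA, and fibroblasts did not.

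Transcripts of muscle, pigment cells and the lower follicle in members also differed between libraries. Of the 12 genes furthest below Neg in AA, 5 were in the list of 6 skeletal muscle markers, and 11 had over 50% of their Neg UMIs in 1 member. The 6 markers summed to 513, 62.3 and 18.5 CPM, led by Acta1, skeletal actin, at 239, 30.3 and 9.24 CPM, and 1 Neg member held 3352 of the 3594 UMIs. Without the 2 richest members of each library the sums were 33.9, 38.3 and 17.9 CPM. Of the 12 genes furthest above AA in AA+Ab, 4 were melanocyte markers, and 10 had over 50% of their AA+Ab UMIs in 1 member. The 6 melanocyte markers summed to 77.3, 34.2 and 396 CPM, with 0 UMIs of Sox10 in AA, led by Dct, an enzyme of melanin synthesis, at 30.6, 11.3 and 154 CPM. Here 1 AA+Ab member held 2328 of 3555 UMIs, and the sums without the 2 richest members were 71.7, 32.6 and 93.7 CPM. Without those cells Neg was no longer above AA for muscle transcripts but stayed above AA+Ab, and AA+Ab stayed highest for melanocyte transcripts by a smaller margin. The melanocyte median turned, to -0.69 in AA+Ab against AA with 2 of the 5 rule genes and to -0.0443 in AA+Ab against Neg with 1 Krt79 UMI. The muscle median in AA against Neg turned to 1.18 with doublets removed. In basal cells the same lists stood at 103, 91.6 and 42.8 and 159, 76.8 and 189 CPM.

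Hair shaft and inner root sheath markers, 13 of 14 measured, summed to 598, 400.003 and 316 CPM, led by Gata3 at 291, 207 and 191 CPM, and 441, 338 and 295 CPM without the 2 richest members. Of 11 tested, 3 were lower and 1 higher in AA than in Neg, and 6 were lower in AA+Ab than in Neg. The median log2 ratio in AA+Ab against Neg was -1.02 and ranged from -1.02 to -0.11 under the alternatives. Krt71, an inner root sheath keratin, had 86.3, 10.1 and 6.34 CPM, with 513 of 604 Neg UMIs in 1 cell. Sebaceous genes summed to 1189, 1568 and 1181 CPM over 19 genes, led by Apoc1, and to 1182, 1234 and 1165 CPM without the 2 richest members. Scd1, a desaturase of sebum synthesis, had 17.6, 136 and 18.1 CPM, and 296 of 674 AA UMIs lay in 1 cell, while Awat1 had 0 UMIs in all 3 libraries. Fibroblast markers summed to 39.7, 123 and 53.8 CPM, led by Dcn at 31.1, 112 and 41.96 CPM, with 296 of 552 AA UMIs in 1 cell and Lum at 0 in Neg and AA+Ab. T cell markers, 13 of 14 measured, summed to 145, 86.4 and 109 CPM, against 23.1, 19.7 and 22.7 CPM in basal cells. In suprabasal cells they had 78.6 CPM in Neg and 69.7 CPM in AA, and a log2 ratio of 0.06 for AA+Ab against Neg. Their most abundant gene was Trbc2, a T cell receptor constant segment, at 98.7, 54.6 and 77.5 CPM, while Gzmb, which encodes granzyme B, had 0 UMIs in members of all 3 libraries. The summed T cell markers were lowest in AA, the library in which the interferon-induced genes were highest. Only 2 of the 13, Trbc2 and Trbc1, had enough UMIs to be compared. Their log2 ratios for AA against Neg were -0.85 and -0.74. Trac had 0 UMIs in AA and AA+Ab, and Cd4 and Cd8a had 0 in Neg and AA+Ab. Cells with a UMI of Ptprc were left out by the rule, so low T cell markers are partly set by the choice of cells. The sum therefore does not measure the T cells of each library. Outer bulge markers summed to 2689.8, 2282 and 3081 CPM, led by Krt15. What part any of these markers had in the differences between libraries was not tested, beyond the sums without the richest members given here.

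Members varied along the axis from basal to suprabasal keratins. In each library they were ordered by log2 of Krt1 and Krt10 UMIs over Krt5 and Krt14 UMIs, with 1 added to each sum, and divided in 3 parts of equal size (64 cells each in Neg, 90 in AA, 140, 139 and 140 in AA+Ab). The median score was -4, -4.46 and -4.75, so that the typical member held over 10 times more UMIs of the basal pair. The parts are ranges of a score and not cell types, and 30, 44 and 98 cells lay within 0.5 of the lower bound and 20, 27 and 43 of the upper. From the basal to the suprabasal part, Gata6 had 94.8, 50.3 and 21.2 CPM in Neg, 72.9, 72.4 and 30.01 CPM in AA and 116, 84.1 and 41.3 CPM in AA+Ab. Lrig1 had 301, 216 and 157 CPM in Neg, 353, 315 and 166 CPM in AA and 186, 177 and 106 CPM in AA+Ab. Spink5 had 143, 284 and 396 CPM, 104, 236 and 891 CPM and 227, 329 and 739 CPM in the same libraries. In each library Gata6 and Lrig1 were therefore lowest, and Spink5 highest, in the suprabasal part, and Gata6 was nearly equal in the basal and middle parts of AA. In AA, the interferon gamma GTPases summed to 405, 114 and 60.02 CPM from the basal to the suprabasal part, the antiviral genes to 2868, 1265 and 671 CPM and the class II genes to 609.7, 170.4 and 69.8 CPM. The antiviral genes had 821, 528 and 447 CPM in Neg and 920.4, 687 and 512 CPM in AA+Ab. The GTPases had 17.6, 13.5 and 13.5 CPM in Neg and 25.9, 26.3 and 10.9 CPM in AA+Ab, and the class II genes 41.02, 49.3 and 60.7 CPM and 121, 76.2 and 73.3 CPM. All 3 lists fell from part to part in AA, while in Neg the class II genes were highest in the suprabasal part. AA members on the basal side thus had the highest levels of these lists among all 9 parts. T cell markers were highest in the suprabasal part in all 3 libraries, at 36.8, 92.2 and 245 CPM, 31.2, 36.9 and 204 CPM and 43.8, 58.1 and 209.9 CPM. Median depths were 16872, 12695 and 12026 UMIs for the AA parts.

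Beside other keratinocytes of the same libraries, taken by keratin levels, the upper follicle cells had the following values. The interferon gamma GTPases stood at 20.3, 174 and 41.5 CPM in basal cells and 10.5, 68.2 and 15.1 CPM in suprabasal cells, with log2 ratios of AA against Neg of 3.099 and 2.70, against 3.84 in upper follicle cells. Antiviral genes had 903, 1241 and 899 CPM in basal and 425, 521 and 384 CPM in suprabasal cells, with log2 ratios of 0.46 and 0.30 against 1.57. Each of these classes was higher in AA than in Neg, with the upper follicle ratio the largest of the 3. Class II genes had 37.8, 161 and 40.3 CPM in basal and 109.99, 89.3 and 92.4 CPM in suprabasal cells, so that AA was above Neg in basal cells and below it in suprabasal cells. The summed stress list had log2 ratios of 1.34 in suprabasal, 0.61 in basal and 0.18 in upper follicle cells. The last had a Neg level of 4303 CPM against 413 and 697. Krt17 made up most of the upper follicle sum, at 3900.1 CPM in Neg and 3955 CPM in AA. It had 148 and 130 CPM in suprabasal cells and 220 and 284 CPM in basal cells. The order of these ratios therefore does not rank the classes for the other genes of the list. Over the 9 genes tested in upper follicle cells the median log2 ratio was 1.12. Summed barrier lipid genes had a log2 ratio of -0.79 for AA+Ab against AA in upper follicle cells and of 0.08 and -0.01 in suprabasal and basal cells. The upper follicle sum leaned on Fabp5, the most abundant gene tested, which had the lowest ratio at -1.30. Over the 15 genes tested there the median was -0.35. Sebaceous cells numbered 10, 27 and 16, too few for more than their antiviral level of 384, 226 and 209 CPM, which was lower in AA than in Neg. Differences between classes were not tested.

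**Figure D3:**
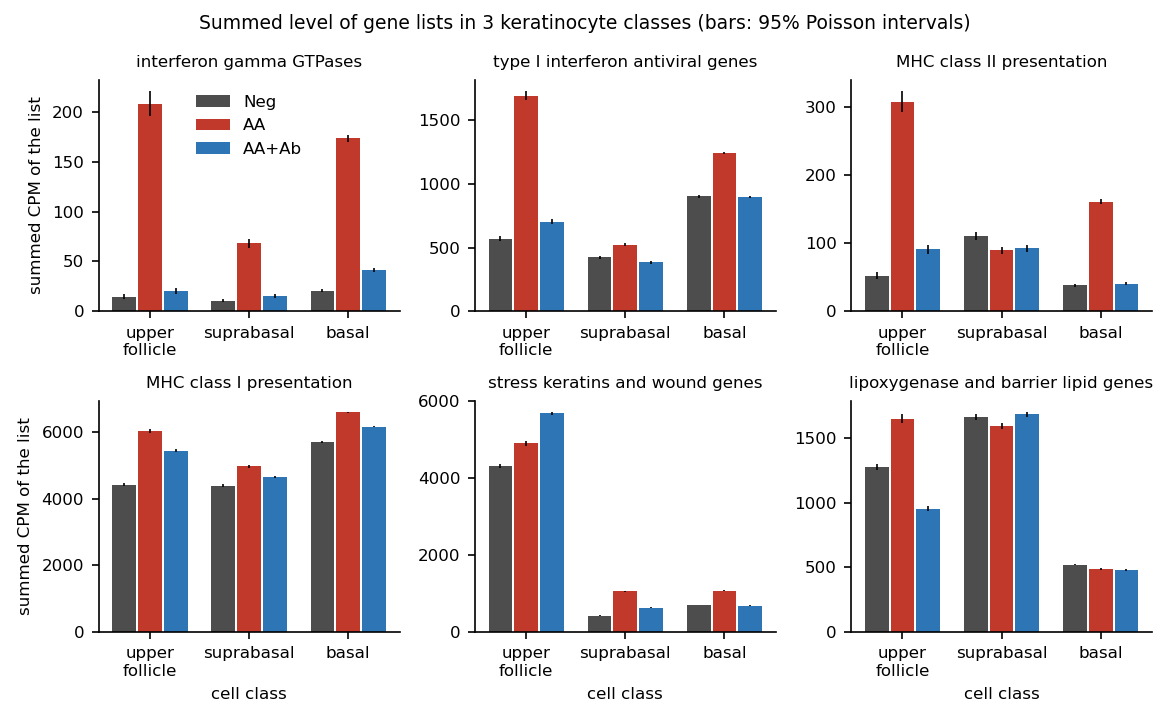
Summed CPM of 6 gene lists in upper follicle, suprabasal and basal keratinocytes of the Neg, AA and AA+Ab libraries, as bars from 0 with exact Poisson 95% intervals. Antiviral genes reach 1695 CPM in AA upper follicle cells, and their level in AA+Ab, at 703 CPM, lies near the Neg value of 571 CPM.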

How the data were processed

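Droplet-based 3′ single-cell RNA libraries of whole dorsal skin were analyzed, 1 pooled library per group. The authors made the deposited UMI counts with Cell Ranger 7.2.0 on mouse build mm10 (the annotation release is not given in the sources used). Barcodes were kept by mitochondrial share and gene number as stated, and UMIs of members were summed per library and gene and divided by all member UMIs (CPM). Genes with at least 100 UMIs over the 3 libraries were compared in 3 comparisons, a gene counting when its CPM differed at least 2 times, with exact Poisson, conditional binomial and Clopper-Pearson intervals and a floor of 3 counts for a count of 0. With 1 library per group no test was possible. Genes named were those of 28 lists, the 12 highest and 12 lowest of each comparison by log2 ratio after adding 5 CPM, and 15 leading genes. List genes under 100 UMIs, and all genes of the paragraph on other genes in the closing section, were chosen after their values were seen. Doublets were scored per library with 2 simulated doublets per cell, 2000 variable genes, 20 principal components and 30 neighbours, and called at 0.8% per 1000 barcodes. Thinning drew 5000 UMIs per cell without replacement. The ratio code was tested on simulated data. The members and gene lists were chosen with earlier results of these data known. Python 3.11.15, numpy 2.4.6, scipy 1.17.1, pandas 2.3.3, scikit-learn 1.9.0 and matplotlib 3.10.9 were used.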

Additional observations from a re-analysis of the deposited data

How the results depend on the processing

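With 1 library per group, leaving out a library was not possible, and no paired analysis was possible because each group is 1 pool. Ratios of list and named genes past 2 times gave 2777 values under 15 alternatives, of which 2440 stayed past 2 times in the same direction and 73 turned. The median for interferon gamma GTPases in AA against Neg ranged from 3.22 to 3.68, that for antiviral genes from 1.65 to 3.72 and that for class II genes from 1.79 to 3.30. The counts of genes higher and lower in AA against Neg, in AA+Ab against Neg and in AA+Ab against AA, 279 and 98, 50 and 112, 61 and 390 as reported, became 130 and 37, 26 and 37, 29 and 149 with members thinned to 5000 UMIs, 570 and 294, 177 and 275, 197 and 713 with a minimum of 30 UMIs and 144 and 30, 22 and 41, 20 and 206 with 10 times that minimum, where fewer or more genes were tested (5610, 12145 and 7322). They became 208 and 52, 79 and 120, 32 and 223 without members carrying a UMI of T cell, myeloid, fibroblast or melanocyte markers, which kept only 19, 64 and 52 cells and 3126 genes tested in place of 10078, so that the counts stand for larger shares of the genes. With doublets removed, AA+Ab against Neg had 27 higher. With 2 of the 5 rule genes, 170 were lower in AA+Ab than in Neg and 37 higher than in AA, and with 4 of 5, 93 were higher than in AA. The mean over cells gave 92 higher in AA+Ab than in AA. Median-ratio size factors gave 255 and 108, 56 and 78, 94 and 269, moving the median of all genes in AA+Ab against Neg from -0.07 to 0.02 and in AA+Ab against AA from -0.12 to 0.02. Shares of members became 3.996, 3.04 and 5.34% with 1 Krt79 UMI, 2.67, 2.27 and 3.82% with 4, 3.46, 3.37 and 5.03% with 2 rule genes, 2.04, 1.55 and 2.94% with 4 and 2.098, 2.02 and 3.71% after thinning, and AA+Ab was highest each time. Among list medians past 2 times and genes named in the text, those that turned were of muscle and pigment genes and Lcn2. Smaller medians changed sign as well, among them hair shaft markers in AA against Neg (-0.96 to 0.30) and AA+Ab against AA (-1.19 to 0.83), fibroblast markers in AA+Ab against Neg (-0.35 to 0.95) and cytokines in AA against Neg (-0.44 to 0.56). In AA against Neg, the skeletal muscle median was 0.39 with a 5% mitochondrial limit, 1.18 with doublets removed, 0.31 for each gene without its richest member and 0.30 without the richest members in 4 marker lists (the last 2 alternatives were chosen after seeing the data), and Acta1 was 0.21, 1.26, 0.15 and 0.19. With 1 Krt79 UMI, both were 1.83 in AA+Ab against AA, and the melanocyte median and Dct were both -0.0443 in AA+Ab against Neg. With 2 rule genes, the melanocyte median and Dct were 0.96 and 1.12 in AA against Neg, and -0.69 and -0.98 in AA+Ab against AA. With 4 rule genes, Lcn2 was -1.63 in AA+Ab against Neg. Acta1 thus turned when 1 member per library was left out, and for the other turns and shifts not made by a change in the genes tested the cause was not tested. A list with no gene past the minimum under an alternative has no median there. At the median depths of members a transcript at 100 CPM gave 1 to 3 UMIs per cell, so that 0 UMIs in a single cell need not mean absence.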

Other observations

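Some genes outside the lists, chosen after their values were seen, were found in many members. Tsc22d3, a target of glucocorticoids that encodes GILZ, had 91.01, 63.3 and 198 CPM, and Fkbp5, another glucocorticoid target, had 34.4, 54.8 and 117 CPM. Both were highest in AA+Ab, where Tsc22d3 was found in 350 of 419 members and Fkbp5 in 293. Cirbp, a cold-inducible RNA-binding protein, had 129.6, 63.9 and 142 CPM, and Ackr3, a scavenging receptor for CXCL12, had 77.01, 37.4 and 77.2 CPM. Like Txnip, both were lowest in AA, with UMIs in 156 and 71 AA members. Thbs1, which encodes the matrix glycoprotein thrombospondin 1, had 97.01, 286 and 89.6 CPM, and Fosl1, an AP-1 factor of migrating keratinocytes, had 66.1, 188 and 86.5 CPM. Cstb, the cytosolic cathepsin inhibitor cystatin B, had 370.2, 982 and 595 CPM. Those 3 were highest in AA, where 94, 141 and 252 of 270 members had a UMI.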
